A study of Mus musculus with 12 samples.

Results

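The acute phase proteins described here are the products of 10 mouse genes: the serum amyloid A genes Saa1, Saa2, Saa3 and Saa4, the orosomucoid genes Orm1, Orm2 and Orm3, and Lcn2, Lbp and Apcs. They were chosen by name, and all 10 were found among the 36528 gene identifiers of the count table. RNA was sequenced from whole liver of 12 mice. One group of 6 mice had been given carbon tetrachloride (CCl4), an industrial solvent whose breakdown by hepatocyte P450 enzymes yields a toxic radical, and the other 6 had been given corn oil, the vehicle. Both were injected into the peritoneum over 6 weeks, with 3 injections a week. The labels used here give no strain, sex, age or interval between the last injection and tissue collection, and nothing in them pairs a mouse of one group with a mouse of the other.

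The acute phase response is the change in secreted liver proteins that follows infection or tissue injury. Interleukin-1, tumour necrosis factor and interleukin-6 released by immune cells act on hepatocytes, where STAT3, NF-kB and C/EBP factors raise transcription of these genes, in some cases by very large factors within hours. Serum amyloid A proteins ride on high-density lipoprotein, orosomucoids (alpha-1-acid glycoproteins) bind drugs and lipids in plasma, lipocalin-2 withholds iron by binding bacterial siderophores, LBP hands bacterial lipopolysaccharide to CD14, and serum amyloid P, the product of Apcs, is the main acute phase pentraxin of the mouse. The comparison asks how these transcripts stood in chronically injured liver.

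Lcn2 was higher in all 6 CCl4 livers than in any oil liver, 5.68-fold on the fitted scale, while Lbp and Saa4 were 1.86-fold and 1.78-fold lower. The other 7 genes, among them the classical acute phase genes Saa1 and Saa2, did not pass the test. Saa1 ran over an 8.93-fold range and Saa2 over a 7.74-fold range among 6 CCl4 mice, against 64.7-fold and 118-fold among 6 vehicle-injected mice. The same oil livers stood at the top for nearly every gene of the set. Oil replicate 5 was the highest in 9 of 10 genes, and oil replicate 1 was the lowest in 8 of 10.

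The proximal promoters of 4 genes are shown: the near-identical pair Saa1 and Saa2, Orm2, and Lcn2, the gene that rose. Orm2 was the other member that followed Saa1 and Saa2 most closely in oil livers (Pearson's r 0.985 and 0.98). There Saa1 and Saa2 each split the livers into separate clusters. In CCl4 livers Orm3 followed Saa1 and Saa2 more closely (r 0.834 and 0.903) than Orm2 did (r 0.646 and 0.571). Each line gives the 250 bases before a transcript start, 5′ to 3′ on the strand of the gene, from the RefSeq annotation of GRCm38.p6. For Saa1 that start lies inside the gene span of 46740497 to 46743181, so the window overlaps the gene. Capitals mark matches to TTGCNNAA, a pattern of C/EBP sites, and in Orm2 also a match to the TATA pattern TATAAA. The windows lie at chr7:46742981-46743230 on the minus strand (Saa1), chr7:46751583-46751832 on the plus strand (Saa2), chr4:63362199-63362448 on the plus strand (Orm2) and chr2:32387740-32387989 on the minus strand (Lcn2).
Saa1: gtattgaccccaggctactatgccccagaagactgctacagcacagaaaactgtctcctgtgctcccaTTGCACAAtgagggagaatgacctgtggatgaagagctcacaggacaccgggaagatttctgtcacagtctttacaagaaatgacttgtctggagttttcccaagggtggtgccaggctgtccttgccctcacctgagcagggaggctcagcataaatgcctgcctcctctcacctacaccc
Saa2: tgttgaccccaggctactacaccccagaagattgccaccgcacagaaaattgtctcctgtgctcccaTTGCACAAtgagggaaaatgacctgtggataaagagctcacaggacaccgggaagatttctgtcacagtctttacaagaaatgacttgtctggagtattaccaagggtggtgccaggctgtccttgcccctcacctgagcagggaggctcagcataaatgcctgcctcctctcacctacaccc
Orm2: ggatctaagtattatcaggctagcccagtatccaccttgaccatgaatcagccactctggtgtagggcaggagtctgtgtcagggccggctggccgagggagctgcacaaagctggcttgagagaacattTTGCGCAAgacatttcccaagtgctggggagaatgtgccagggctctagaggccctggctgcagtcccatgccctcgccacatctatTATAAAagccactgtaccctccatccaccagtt
Lcn2: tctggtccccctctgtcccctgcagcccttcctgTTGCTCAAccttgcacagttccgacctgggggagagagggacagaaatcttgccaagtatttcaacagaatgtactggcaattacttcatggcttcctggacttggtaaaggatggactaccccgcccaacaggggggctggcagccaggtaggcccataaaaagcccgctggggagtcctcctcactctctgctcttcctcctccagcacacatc

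The Saa1 and Saa2 windows were 95.6% identical over 249 aligned bases and held the same C/EBP-type match, 8 letters long, at nearly the same distance from the start. Of the 10 genes, 8 were matched to the promoter table (all but Orm1 and Lbp). Like that of Saa1, the windows of Saa3 (46715677 to 46715926) and Orm3 (63355908 to 63356157) lie wholly or partly inside the gene spans given below. A match to TTGCNNAA on either strand was present in 7 of these 8 windows, all but that of Apcs, and in 9.56% of 32851 promoter windows of the same length. The Orm2 and Orm3 windows were 89.0% identical over 245 aligned bases. With the Saa1 and Saa2 pair also alike, the 8 windows are not independent. The NF-kB pattern, GGG and TTTCC with any 2 bases between them, searched on both strands, was in 0 of 8 windows and in 1.41% of all. The STAT pattern TTCNNNGAA, also on both strands, was found for Apcs alone and in 7.02% of all. TATAAA on the strand of the gene was found for Orm2 and Orm3 and in 7.59% of all. These matches are letters in a short window and not measured binding sites.

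All 10 genes passed the filter on low counts. Of them, edgeR's quasi-likelihood test called 1 higher and 2 lower in CCl4 livers at a Benjamini-Hochberg adjusted p under 0.05, so 3 of 10, where 39.0% of the 16032 tested genes were called (20.6% higher, 18.4% lower). The share called among the 10 was therefore close to that of all genes. With upper-quartile scaling in place of TMM, 67.3% of all calls were rises against 52.8%, and the same 3 of 10 counts stood for the set. The median log2 fold change of the 10 genes was -0.23, beside 0.01 over all tested genes. Lcn2 was the 1 gene of the 10 whose groups had no overlap, as was the case for 20% of all tested genes (12% higher, 8.03% lower). Leaving out oil replicate 5 raised the count to 6 genes (4 higher, 2 lower), beside 7514 of all 16275 tested genes. Limma-voom with quality weights also called 6 (4 higher, 2 lower), beside 8729 of 16032. Dropping CCl4 replicate 6 with oil replicate 5 gave 5 (3 higher, 2 lower), beside 6879 of 16198. Their libraries were the richest of their groups in short transcripts. Calls over all genes were thus also more than the 6256 of the main fit. DESeq2 called 7243 of 16032 genes and 3 members. Replicate numbers only name mice, and sizes of rises and falls are log2 fold changes, CCl4 over oil.

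**Figure D1:**
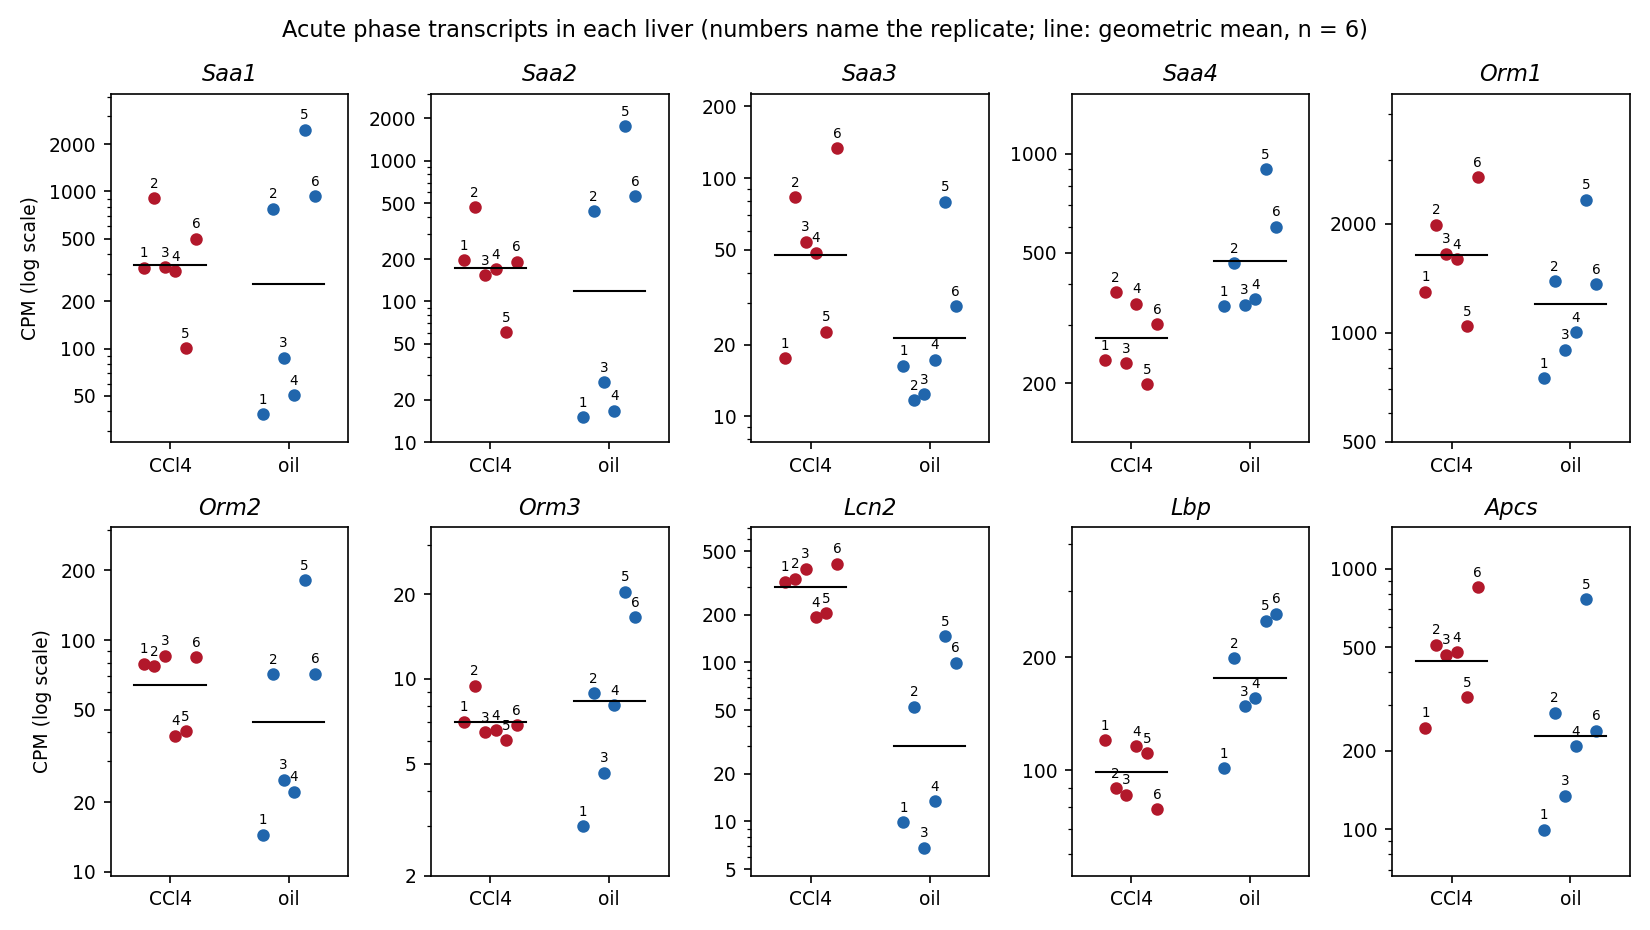
CPM (log axis) of the 10 transcripts in each of 6 CCl4 livers (red) and 6 oil livers (blue), with the replicate number beside each point and the geometric mean as a line. Lcn2 is the panel in which the groups separate (192 to 418 CPM in CCl4 and 6.84 to 146 CPM in oil), and the oil points of Saa1 and Saa2 spread furthest.

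Saa1 and Saa2, neighbours on chromosome 7 (GRCm38, 46740497 to 46743181 and 46751833 to 46754313; gene IDs 20208 and 20209), encode the serum amyloid A proteins that the liver secretes in the acute phase. Levels are given in CPM, counts per 1000000 after TMM scaling of the libraries. Saa1 had 328, 902, 329, 312, 101 and 501 CPM in CCl4 replicates 1 to 6, against 38.1, 777, 87.4, 50.8, 2467 and 931 CPM in oil replicates 1 to 6. All 6 CCl4 livers lay inside the range of the oil livers, and the oil livers fell into 2 sets of 3 with a gap of 8.89-fold between 87.4 and 777 CPM. Saa2 had 197, 470, 154, 169, 60.7 and 192 CPM in CCl4 livers, against 15.0, 437, 26.7, 16.7, 1769 and 562 CPM in oil livers. Oil replicates 1, 3 and 4 were again apart from 2, 5 and 6, here by 16.3-fold.

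The fitted log2 fold change of Saa1, CCl4 over oil, was -0.82 ± 0.86 (SE, n = 6 each; edgeR adjusted p = 0.467), with a 95% interval of -2.66 to 1.03. The direction differed between summaries. The mean was 412 ± 272 CPM in CCl4 and 725 ± 939 CPM in oil (SD), whereas the mean of log2 CPM was 8.41 in CCl4 and 8.02 in oil. Without oil replicate 5 the log2 fold change was 0.12, and with limma-voom with quality weights it was 1.36 (adjusted p = 0.238). Saa2 had -1.19 ± 0.97 (edgeR adjusted p = 0.344, 95% interval -3.27 to 0.89), and 1.67 with limma-voom (adjusted p = 0.208). Its mean of log2 CPM was also higher in CCl4 (7.445) than in oil (6.902), opposite to the edgeR fit. Both intervals include 0 and reach further below it than above it.

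The curated transcripts of Saa1 and Saa2 were 94.4% identical over 606 aligned bases, and 13.2% of all 50-base windows of Saa1 also occurred in Saa2. The treatment of reads matching both is not given in the sources used here, and the division between them is uncertain. Their summed level ran from 161.7 to 1372 CPM in CCl4 and from 53.1 to 4235 CPM in oil. The count of Saa2 per count of Saa1 had a median of 0.531 in CCl4 (0.383 to 0.600) and 0.478 in oil (0.306 to 0.717), a difference that did not pass (exact two-sided permutation test, p = 0.522, adjusted over 6 ratios within the families p = 0.626).

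Saa3, at 46711998 to 46719615 (gene ID 20210), is made largely outside hepatocytes, in macrophages and fat among other cells. It had 17.5, 83.3, 54.1, 48.7, 22.6 and 133 CPM in CCl4 livers, against 16.3, 11.7, 12.4, 17.3, 79.6 and 29.1 CPM in oil livers. All 6 CCl4 livers stood above the oil median of 16.8 CPM, and oil replicate 5 stood above 4 of them. The log2 fold change was 1.11 ± 0.55 (edgeR adjusted p = 0.122, 95% interval -0.07 to 2.29). Without oil replicate 5 it was 1.78 and passed (adjusted p = 0.00834), as it did with limma-voom at 1.55 (adjusted p = 0.00237). With the slope of each library on transcript length as a covariate it was 0.13 (adjusted p = 0.834), and with length and GC trends removed 0.55 (adjusted p = 0.273). Of 12 macrophage markers 9 were called higher in CCl4 livers and 3 did not pass. Their summed level was 856 to 1827 CPM in CCl4 against 396 to 607 CPM in oil, without overlap. Counts of called markers here and below stand beside 20.6% of all tested genes that rose and 18.4% that fell. In whole liver, more cells of a type and more RNA per cell cannot be told apart, and the part of macrophages in the level of Saa3 was not tested. Of 6 adipocyte markers, Lep was at 0 and Adipoq, Plin1, Retn and Cfd averaged under 1 CPM in both groups, while Fabp4, which macrophages also express, had 54.0 CPM in CCl4 and 9.23 CPM in oil. The summed level of the 6, nearly all of it Fabp4 in CCl4, was 25.5 to 111 CPM in CCl4 and 5.99 to 15.2 CPM in oil. Of the 2 that were tested Fabp4 rose and Cfd fell (by 2.86, edgeR adjusted p = 0.00786), and Adipoq averaged 0.0340 CPM in CCl4 and 0.164 CPM in oil.

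Saa4, at 46727992 to 46732603 (gene ID 20211), encodes the constitutive serum amyloid A of plasma, which the acute phase raises little. It had 235, 379, 230, 349, 198 and 303 CPM in CCl4 livers, against 344, 464, 346, 361, 898 and 600 CPM in oil livers. The groups overlapped only through CCl4 replicates 2 and 4, which lay above the lowest oil livers. It fell by 0.83 on the log2 scale (SE 0.25, n = 6 each; edgeR adjusted p = 0.0186), 1.78-fold lower. The call held under all 22 alternatives, at log2 fold changes of -1.16 to -0.52.

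The 4 genes next to the Saa cluster that were tested, chosen by position, included Sergef at 0.81 ± 0.29 (edgeR adjusted p = 0.0371) and Saal1 at 0.52 ± 0.19 (edgeR adjusted p = 0.0450), which rose on the left side, and Hps5 and Gtf2h1 on the right side, which did not pass. Saa4, inside the cluster, fell where both called neighbours rose, while Hps5 and Gtf2h1 had -0.36 and -0.23. Calls among these neighbours, and among those of the Orm cluster below, stand beside 39.0% of all tested genes called.

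The orosomucoid genes lie together on chromosome 4 (Orm1 63344556 to 63348163, Orm3 63356069 to 63359506, Orm2 63362449 to 63365877; gene IDs 18405, 18407 and 18406). Orm1, the most abundant of them, had 1298, 1984, 1650, 1594, 1041 and 2688 CPM in CCl4 livers, against 747, 1388, 897, 1003, 2329 and 1358 CPM in oil livers. Of the CCl4 livers 5 stood above the oil median of 1180 CPM, and oil replicate 5 exceeded all CCl4 livers but replicate 6. The log2 fold change was 0.41 ± 0.28 (edgeR adjusted p = 0.255, 95% interval -0.19 to 1.01). It passed without oil replicate 5, at 0.66 (adjusted p = 0.0394), and limma-voom gave 0.65 (adjusted p = 0.0195). With the slope of each library on transcript length as a covariate it was -0.03.

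Orm2 had 79.0, 77.2, 85.7, 38.6, 40.5 and 84.3 CPM in CCl4 livers, against 14.4, 71.4, 25.0, 22.2, 181 and 71.6 CPM in oil livers. The means were nearly equal, 67.5 ± 21.9 CPM in CCl4 and 64.3 ± 62.5 CPM in oil (SD, n = 6 each), while the range was 2.22-fold in CCl4 and 12.6-fold in oil. The log2 fold change was 0.07 ± 0.51 (edgeR adjusted p = 0.921, 95% interval -1.02 to 1.16), so a change of 2-fold either way lies at the edge of the interval. Orm3 was the lowest, with 7.04, 9.45, 6.48, 6.57, 6.06 and 6.85 CPM in CCl4 livers, against 3.00, 8.90, 4.64, 8.07, 20.4 and 16.6 CPM in oil livers. It had -0.54 ± 0.37 (edgeR adjusted p = 0.262). Its range was 1.56-fold in CCl4 and 6.80-fold in oil.

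Orm1 and Orm2 transcripts were 91.0% identical over 775 aligned bases, and 20.4% of their 50-base windows were shared, so their counts may be divided in an unknown way. Summed, the 3 genes had 1784 ± 590 CPM in CCl4 and 1362 ± 638 CPM in oil (SD), with a log2 fold change of 0.39 (edgeR adjusted p = 0.290). The count of Orm3 per count of Orm1 had a median of 0.00444 in CCl4 and 0.00723 in oil, and Orm3 per Orm2 had 0.106 in CCl4 and 0.197 in oil. Neither difference passed after adjustment over the 6 ratios (exact two-sided permutation tests, p = 0.0390 and 0.0325, both adjusted p = 0.117). Of the 4 tested genes next to the Orm cluster, chosen by position, Col27a1, a fibrillar collagen gene on the left side, fell by 2.19 on the log2 scale (edgeR adjusted p = 0.00201) and Whrn on the right side by 1.17 (edgeR adjusted p = 0.0167), while Kif12 and Akna did not pass.

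Lcn2, on chromosome 2 at 32384637 to 32387739 (gene ID 16819), encodes lipocalin-2, which hepatocytes, neutrophils and epithelia secrete. It had 323, 337, 389, 192, 204 and 418 CPM in CCl4 livers, against 9.85, 52.7, 6.84, 13.4, 146 and 99.5 CPM in oil livers. The lowest CCl4 liver stood above the highest oil liver, although the oil livers spanned 21.3-fold and the CCl4 livers 2.18-fold. The mean of log2 CPM was 8.22 in CCl4 and 4.90 in oil, further apart than the fitted change. That log2 fold change was 2.51 ± 0.66 (SE, n = 6 each, edgeR adjusted p = 0.00839, 95% interval 1.09 to 3.92). It was called under all 22 alternatives, at 2.23 to 3.85, with 3.08 without oil replicate 5 and 3.85 with limma-voom. Neutrophil markers, set beside it because neutrophils store lipocalin-2, summed to 28.6 to 92.9 CPM in CCl4 and 14.5 to 52.8 CPM in oil, with overlap. Of 14, 9 were tested, 2 rose (Retnlg, Prtn3) and 7 did not pass, a share of rises near the 20.6% of all tested genes. Prtn3 was 3.68-fold and Retnlg 2.45-fold higher, whereas S100a8 and S100a9 had log2 fold changes of -0.23 and -0.04. Mpo, Ngp, Camp, Ltf and Ly6g were too low to test, under 1 CPM in every liver. Among these granule protein genes, Ngp averaged 0.516 CPM in CCl4 and 0.0915 CPM in oil, Camp 0.423 CPM in CCl4 and 0.0392 CPM in oil, Ltf 0.321 CPM in CCl4 and 0.0482 CPM in oil, and Mpo 0.168 CPM in CCl4 and 0.0548 CPM in oil. Of 6 bile duct epithelial markers 3 rose (Spp1, Tspan8 and Epcam) and 3 did not pass, with a sum, mostly Spp1, of 141 to 208 CPM in CCl4 and 29.6 to 58.8 CPM in oil. Of 10 stellate cell and fibroblast markers 10 rose, with a sum of 831 to 1132 CPM in CCl4 and 231 to 377 CPM in oil. The part of neutrophils, bile duct cells or stellate cells in the level of Lcn2 was not tested.

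Slc22a17, a proposed receptor of lipocalin-2, rose by 0.59 (edgeR adjusted p = 0.0343) at a low level, 1.26 CPM in CCl4 livers and 0.835 CPM in oil livers. Lrp2 (megalin), another receptor, averaged 0.961 CPM in CCl4 livers and 1.88 CPM in oil livers and did not pass (edgeR adjusted p = 0.0828). Mmp9, whose enzyme lipocalin-2 binds, averaged 2.14 CPM in CCl4 livers and 2.18 CPM in oil livers.

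Lbp, on the same chromosome at 158306493 to 158332852 (gene ID 16803), had 120, 89.6, 86.1, 116, 111 and 78.7 CPM in CCl4 livers, against 101, 199, 148, 156, 250 and 261 CPM in oil livers. Of the oil livers 5 stood above every CCl4 liver, and oil replicate 1 lay among them. Lbp fell by 0.89 on the log2 scale (SE 0.21, n = 6 each; edgeR adjusted p = 0.00470), 1.86-fold lower, and was called under all 22 alternatives at log2 fold changes of -1.05 to -0.69. Of the membrane partners of the protein, Cd14, to which LBP passes lipopolysaccharide, rose by 1.69, with 15.7 CPM in CCl4 livers and 4.87 CPM in oil livers on average (edgeR adjusted p = 1.47e-05). Tlr4, the signalling receptor, rose by 0.95 (edgeR adjusted p = 0.00442), while Ly96, which encodes MD-2, had 0.47 (edgeR adjusted p = 0.0599).

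Apcs, on chromosome 1 at 172893961 to 172895054 (gene ID 20219), had 245, 510, 468, 478, 322 and 851 CPM in CCl4 livers, against 99.5, 280, 134, 209, 766 and 239 CPM in oil livers. Every CCl4 liver stood above the oil median of 224 CPM, and oil replicate 5 was above all CCl4 livers but replicate 6. The log2 fold change was 0.73 ± 0.44 (edgeR adjusted p = 0.193, 95% interval -0.20 to 1.67). Without oil replicate 5 it was 1.31 (adjusted p = 0.00609), and limma-voom gave 1.30 (adjusted p = 0.00431). The transcript length covariate gave 0.18 (adjusted p = 0.670), and removal of length and GC trends 0.39 (adjusted p = 0.306). Crp, the other short pentraxin, which in mouse is only a minor acute phase gene, fell by 0.77, with 331 CPM in CCl4 livers and 566 CPM in oil livers (edgeR adjusted p = 0.00291).

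**Figure D2:**
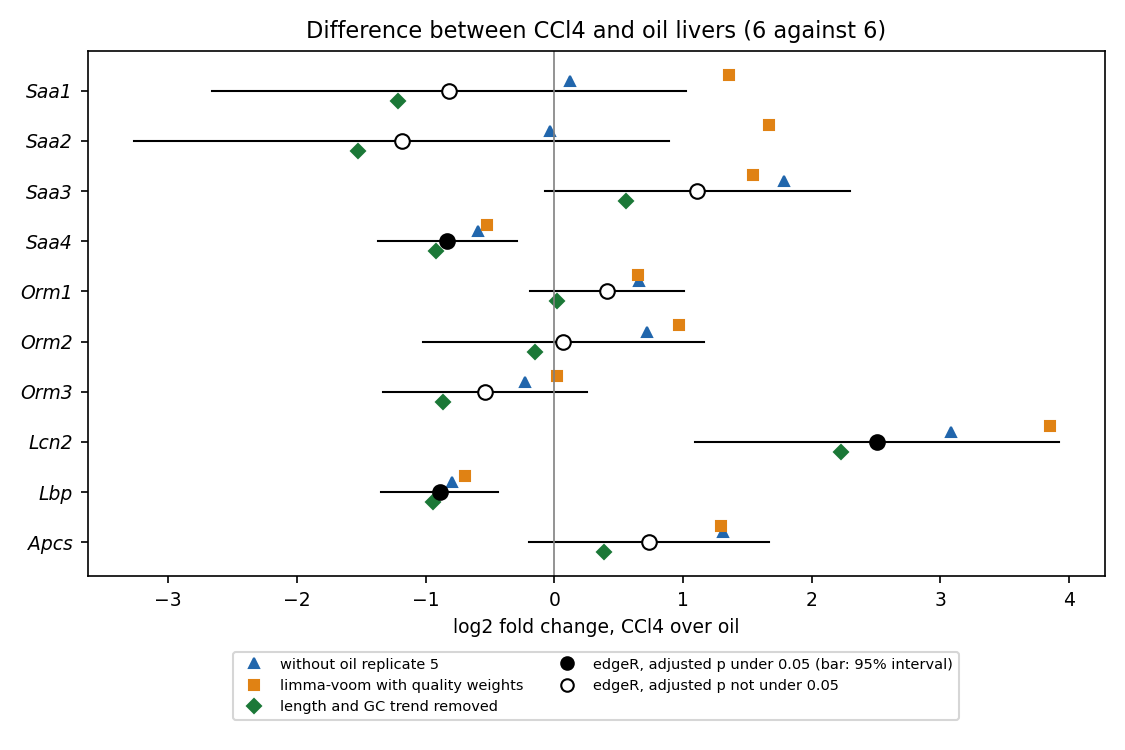
Log2 fold change of the 10 transcripts, CCl4 over oil, from edgeR with its 95% interval (circles, filled where adjusted p was under 0.05), and the values without oil replicate 5, with limma-voom and after removal of trends in transcript length and GC content. The called Lcn2, Lbp and Saa4 keep their side of 0 in all of these, as do Saa3, Apcs and Orm1 (0.02 with the trends removed). Saa1, Saa2, Orm2 and Orm3 lie on both sides.

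Per kilobase of transcript, Orm1 was the most abundant member in both groups, with 2206 ± 745 CPM per kb in CCl4 and 1661 ± 735 CPM per kb in oil (SD, n = 6 each). It stood above Saa1, the next, in 6 of 6 CCl4 livers and in 5 of 6 oil livers. Below it in CCl4, Saa1, Apcs, Saa2 and Lcn2 lay between 677 and 339 CPM per kb on average, and the order of neighbours changed from liver to liver (4, 4 and 2 of 6 livers in that order). Lcn2 took rank 5 in CCl4, above Saa4 in 6 of 6 livers, and rank 8 in oil at 59.7 ± 62.4 CPM per kb. Orm3 was last in both, at 9.15 ± 1.57 CPM per kb in CCl4 and 13.3 ± 8.83 CPM per kb in oil. The 10 genes together took 2106 to 5256 CPM in CCl4 and 1389 to 8905 CPM in oil.

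Over all genes a larger spread in oil livers was not the rule, and the cause of the spread of these 10 genes was not tested. The SD of log2 CPM was larger in oil than in CCl4 for 9 of the 10 genes, Saa3 being the other one, whereas among the 11929 tested genes whose mean log2 CPM reached 1 it was larger in oil for 35.1%. By their SD in CCl4, 3 genes were at or above the 90th percentile of these genes (Saa1, Saa2 and Saa3), and by their SD in oil all 10 were (90.4 for Lbp to 100 for Saa1 and Saa2). In CCl4 the SD of log2 CPM was 1.04 for Saa1, 0.94 for Saa2 and 0.48 for Lcn2, against 2.53, 3.01 and 1.86 in oil. Most genes of the wider positive acute phase list also spread more in oil, here by the SD of CPM, which is not relative to the level. The SD of CPM was 917 in oil and 243 in CCl4 for Itih4, and 3000 in oil and 788 in CCl4 for Fgg. For Hpx, Cp, Serpina3m and Il1rn the SD of CPM was larger in CCl4, where their means were also higher. Hpx had 15470 ± 8640 CPM in CCl4 and 8024 ± 3138 CPM in oil (SD). Il1rn had 11.9 ± 2.17 CPM in CCl4 and 2.30 ± 0.68 CPM in oil (SD), so relative to its mean it spread more in oil.

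The order of livers was largely shared among the genes. In CCl4, replicate 6 was among the top 3 in 9 genes and replicate 2 in 8, and replicate 5 was the lowest in 5. Lbp ran against this order in CCl4, with replicate 6 lowest and replicate 1 highest. Other genes differed too, with CCl4 replicate 1 lowest for Saa3 and Apcs and CCl4 replicate 4 lowest for Orm2 and Lcn2. Oil replicates 5 and 6 were among the top 3 in 10 of 10 genes and oil replicate 2 in 9 of 10. The exception was Saa3, for which oil replicate 2 was the lowest. Outside the set, Hp, Fgb, Fgg, Lrg1, Serpina3n, Mt1 and Mt2 also had oil replicates 2, 5 and 6 on top, while Crp, Hamp and Il1rn did not.

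**Figure D3:**
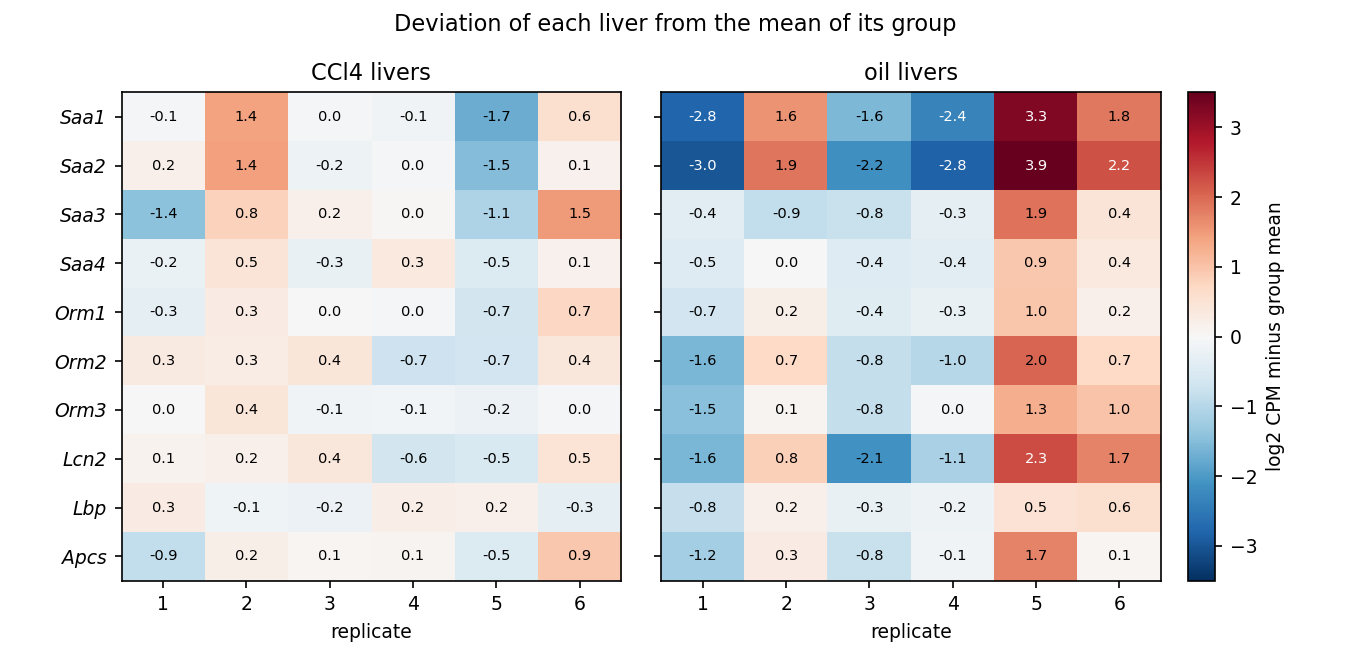
Deviation of log2 CPM in each liver from the mean of its group for the 10 transcripts, CCl4 livers on the left and oil livers on the right. In CCl4 Lbp runs largely opposite to Apcs, and the deviations are smaller than in oil for 9 of the 10 genes, Saa3 being the other one. In oil the columns are nearly uniform, with replicate 5 above the mean in all 10 genes and replicate 1 below it.

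Correlations of log2 CPM were computed within each group of 6 livers, for 90 pairs in all, and are described for pairs in which neither gene split the livers into separate clusters. That sets aside Saa1 and Saa2 in oil and Orm2, Lcn2 and Lbp in CCl4. Over all 45 CCl4 pairs Pearson's r was positive in 36 (-0.86 to 0.979, median 0.518), and the 9 negative pairs were those that hold Lbp, a gene that met the criterion for a split narrowly, with a gap of 0.508 of its range against the 0.5 required. The 21 CCl4 pairs described, none of which holds Lbp, all had a positive r (0.187 to 0.974, median 0.681), 7 passed an unadjusted p of 0.05 by exact permutation and 3 an adjusted one. In oil all 28 had a positive r (0.602 to 0.983, median 0.898), 21 passed unadjusted and 19 adjusted. By Spearman's rho 1 and 2 pairs passed after adjustment. Once the 2 livers farthest from the median of the first gene were left out, r was still positive in 17 of 21 pairs in CCl4 and in 21 of 28 in oil. The difference between the groups was not tested. With DESeq2 size factors or upper-quartile scaling 28 CCl4 pairs had no split, of which 21 had a positive r (lowest r -0.82 and -0.886). With upper-quartile scaling 0 pairs passed after adjustment, the smallest adjusted p being 0.0526, while 11 of 45 pairs in CCl4 and 36 of 45 in oil passed unadjusted.

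Orm1 and Apcs ran together in both groups. In CCl4 r was 0.900 and rho 0.886 (exact permutation p = 0.0222 and 0.0333, adjusted 0.0526 and 0.0789, r without 2 livers 0.884), and in oil r was 0.983 and rho 1 (exact permutation p = 0.00278 for both, the smallest that 6 livers allow here, adjusted 0.0417, r without 2 livers 0.905). Saa3 and Apcs had r 0.973 and rho 0.943 in CCl4 (exact permutation p = 0.00556 and 0.0167, adjusted 0.0486 and 0.0682, r without 2 livers 0.958). The same pair in oil had r 0.792 and rho 0.371 (exact permutation p = 0.144 and 0.497, adjusted 0.214 and 0.589), which became -0.373 without 2 livers. Every described oil pair that holds Saa3 turned negative without 2 livers, so those rest on the livers left out. Orm2 and Lcn2 had r 0.934 and rho 0.829 in oil (exact permutation p = 0.0194 and 0.0583, adjusted 0.0486 and 0.119, r without 2 livers 0.932).

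Measures of cell content and of the libraries were set beside the members in the same way. In CCl4 9 of 10 genes correlated positively with the neutrophil marker sum and with the macrophage sum, Lbp being negative with both, and in oil all 10 did (r 0.521 to 0.850 and 0.346 to 0.745). The largest part of the neutrophil sum was Prtn3 in CCl4 (20.3 CPM on average, S100a9 12.4 CPM). In oil it was S100a9 (12.8 CPM, Prtn3 5.50 CPM). Prtn3 is also among the genes most like Saa1 and Lcn2, named below, so this sum is not a measure of neutrophils alone. In CCl4 9 of 10 and in oil all 10 were negatively related to the slope of the library on transcript length, a measure of how rich a library is in long transcripts. Of these 60 relations 0 passed after adjustment (exact permutation, smallest adjusted p = 0.111), and 10 passed unadjusted. CCl4 replicate 6 was the CCl4 library richest in short transcripts (slope -0.385), and oil replicate 5, the highest for most members, was the oil one (slope -0.15, other oil libraries 0.05 to 0.26). After removal of trends in length and GC content, 2 of 45 CCl4 pairs and 10 of 45 oil pairs passed after adjustment, where 4 CCl4 pairs and 32 oil pairs had passed without that removal. At an unadjusted p of 0.05, 5 CCl4 pairs and 36 oil pairs passed, where 10 CCl4 pairs and 36 oil pairs had, and r was positive in 26 CCl4 pairs and 45 oil pairs. The part of library composition in the shared order was not tested further.

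Genes whose deviations from the group mean were most like those of a member over the 12 livers, ranked by Pearson's r, are named as a description. For Saa1, after Saa2 and other members, these were Prtn3, Fgl1 and Rbck1. Prtn3, a neutrophil granule protease gene on the marker list, had 9.81 to 41.7 CPM in CCl4 and 0.612 to 11.3 CPM in oil, high in oil replicates 2, 5 and 6. Fgl1 encodes a secreted hepatocyte protein of the fibrinogen family and was also closest to Orm2 (r 0.368 in CCl4 and 0.936 in oil). For Lcn2 they were Tmprss2, Cyb561 and again Prtn3, with r of 0.958, 0.972 and 0.935 in oil. In CCl4, where Lcn2 split the livers, the values were 0.488, -0.335 and 0.460. Tmprss2, a membrane serine protease, rose by 1.48 with Lcn2 (edgeR adjusted p = 2.88e-06).

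Lbp kept other company in CCl4. In oil it ran with the other members, at r of 0.813 with Apcs to 0.963 with Orm3, and 0.602 with Saa3. Its nearest genes were Itih4, Litaf and Fga, with r of 0.988, 0.835 and 0.806 in CCl4 and 0.986, 0.996 and 0.994 in oil, and Itih4 and Fga belong to the wider acute phase list. Itih4, a heavy chain of the inter-alpha-trypsin inhibitor family, had 2136 ± 243 CPM in CCl4 and 2601 ± 917 CPM in oil (SD, n = 6 each) and did not pass (edgeR adjusted p = 0.314). For Apcs the nearest were Il13ra1, Serpina10 and Ctsc, with r of 0.952, 0.965 and 0.912 in CCl4 and 0.989, 0.977 and 0.988 in oil.

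Of 20 other positive acute phase genes 3 rose (Il1rn, Cp and Hpx), 1 fell (Crp) and 16 did not pass, with a median of 0.09 beside 0.01 over all genes. Of all tested genes 20.6% rose and 18.4% fell, against which the counts of this and the following lists are set. Il1rn, the interleukin-1 receptor antagonist, rose by 2.37, with 8.90 to 15.0 CPM in CCl4 livers and 1.33 to 3.28 CPM in oil livers (edgeR adjusted p = 1.55e-06). The copper carrier ceruloplasmin, Cp, rose by 0.60 (adjusted p = 0.00803) and the haem carrier hemopexin, Hpx, by 0.95 (adjusted p = 0.0322). Hp, haptoglobin, averaged 6834 CPM in CCl4 livers and 5905 CPM in oil livers (log2 fold change 0.21, adjusted p = 0.537), and the fibrinogen chains Fgb and Fgg had -0.27 and -0.11. Hamp, the iron hormone hepcidin, had 0.90 ± 0.50 (adjusted p = 0.165), and the metallothioneins Mt1 and Mt2 had 1.08 ± 0.73 and 0.72 ± 0.59.

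Of 10 negative acute phase genes, which the response lowers, 1 rose (Ahsg, fetuin-A, by 0.59, edgeR adjusted p = 0.00123) and 2 fell (Serpina6, the corticosteroid carrier, by 1.07, adjusted p = 0.0121, and Pon1 by 0.49, adjusted p = 0.0404), with a median of -0.01. Alb, albumin, averaged 77060 CPM in CCl4 livers and 78020 CPM in oil livers, and Ttr, transthyretin, 8363 CPM in CCl4 livers and 8397 CPM in oil livers.

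Among the inducing cytokines 6 of 9 were tested. Lif rose by 2.54 (edgeR adjusted p = 8.45e-06) and Tnf by 1.43 (adjusted p = 0.0120), both under 1 CPM in every liver. Il1b fell by 1.66, with 2.15 to 4.65 CPM in CCl4 livers and 5.97 to 18.5 CPM in oil livers, without overlap (adjusted p = 0.000701). Il6 was too low to test, with 0 to 0.0732 CPM in CCl4 livers and 0.0309 to 0.234 CPM in oil livers. Of 9 receptor genes 1 rose and 2 fell. Osmr, the oncostatin M receptor, rose by 1.08 (adjusted p = 0.000449). Lifr, the leukemia inhibitory factor receptor, fell by 1.18, with 130 CPM in CCl4 livers and 294 CPM in oil livers (adjusted p = 4.33e-05), and Il1rap, the shared chain of interleukin-1 receptors, fell by 0.95 (adjusted p = 0.000585). Il6ra, Il6st and Il1r1 did not pass.

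Of 14 signalling and transcription factors 0 rose, 6 fell and 8 did not pass, with a median of -0.38. The share called was near that of all genes (39.0%), of which 20.6% rose and 18.4% fell. Hnf4a, the hepatocyte nuclear factor that many secretory genes need, fell by 1.05, with 328 CPM in CCl4 livers and 681 CPM in oil livers (edgeR adjusted p = 0.000681). Nr3c1, the glucocorticoid receptor, which acts with cytokines on acute phase genes, fell by 0.42 (adjusted p = 0.0140), and Cebpd by 0.64 (adjusted p = 0.0355). Cebpb had -0.57 (adjusted p = 0.0515) and Stat3 -0.32 (adjusted p = 0.254). Socs3, the feedback inhibitor that STAT3 induces, had 15.3 to 36.5 CPM in CCl4 and 5.71 to 20.9 CPM in oil, with a log2 fold change of 0.54 ± 0.31 (adjusted p = 0.186). Of 12 hepatocyte markers 2 rose (Ahsg and Apoc3), 4 fell (Hnf4a, Apob, Cps1 and Serpinc1) and 6 did not pass. Their sum, to which Alb contributed most, was 118200 to 171900 CPM in CCl4 and 118400 to 161100 CPM in oil.

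**Figure D4:**
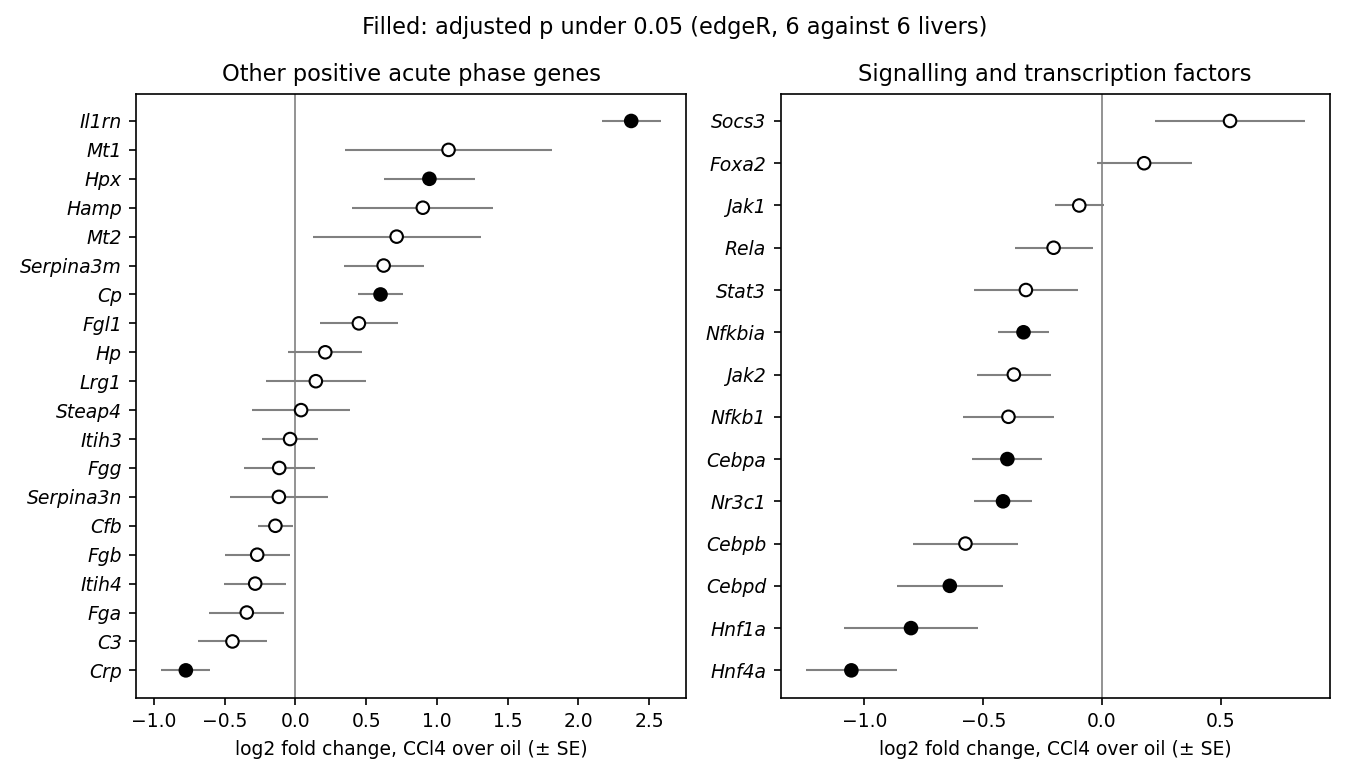
Log2 fold change (± SE), CCl4 over oil, of 20 other positive acute phase genes (left) and 14 signalling and transcription factors (right), filled where the edgeR adjusted p was under 0.05. Il1rn stands furthest to the right among the first, and all 6 called factors lie left of 0.

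Of 15 tested receptors and partners of the secreted products 5 rose (Cd14, Tlr4, Tlr2, Ager and Slc22a17) and 1 fell. The one that fell was Apoa2, an apolipoprotein of the high-density particles that carry serum amyloid A, by 0.65, with 5092 CPM in CCl4 livers and 8011 CPM in oil livers (edgeR adjusted p = 0.00917). Fpr2, a receptor for serum amyloid A, had 1.01 CPM in CCl4 and 0.816 CPM in oil (adjusted p = 0.345). Among 6 tested lipocalin and pentraxin relatives 1 rose, Apom (by 0.61, adjusted p = 0.0178), and 2 fell, Ptgds (by 2.10, adjusted p = 0.00186) and Crp.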

How the data were processed

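Per the labels' protocols, whole liver RNA was column-purified and sequenced from stranded libraries of total RNA. The authors deposited whole-number read counts per gene without normalisation, for each sample and as a table of the series, and all 12 columns of the table equalled the sample files. Per the submitters' processing notes the build was GRCm38. How reads were aligned and counted, with which annotation, strand setting and rule for reads that match several genes, is not given in the sources used here. Symbols were matched to 31049 gene IDs through RefSeq for GRCm38.p6 and to 78 more through GENCODE M21, and the 5401 IDs without a name held 2.19% of counts and stayed in the fit. Total counts per library were 53602695 to 69203292 in CCl4 and 43027778 to 70375852 in oil, and the lowest member, Orm3, rested on 374 to 640 reads per liver in CCl4 and 147 to 1074 in oil. The labels call the samples livers of treated mice and do not describe each animal, so p-values measure the spread between these samples.

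In edgeR 4.0.16 (R 4.3.3), low counts were removed by filterByExpr, libraries were scaled with TMM, and a robust quasi-likelihood F test was run over 16032 genes, with Benjamini-Hochberg adjustment and a threshold of 0.05. Standard errors are the log2 fold change over the square root of F, and 95% intervals use the t distribution of the fit. Log2 CPM used a prior count of 2. Within groups, Pearson's r and Spearman's rho were tested by exact two-sided permutation (720 pairings, scipy 1.17.1) and adjusted over 90 pairs. A gene was called split where the widest gap in its log2 CPM was over 0.5 of its range with at least 2 livers on each side. Promoters and transcripts were compared with Biopython 1.88. The alternatives tried were upper-quartile scaling, DESeq2 size factors, TMM computed without the 20 largest genes, limma-voom (limma 3.58.1) with quality weights, DESeq2 1.42.0, no filter, at least 50 counts in 6 libraries, the length slope as a covariate, removal of length and GC trends (lowess span 0.3; 86.6% of tested genes had a length), summed families and leaving out libraries. On simulated counts for this comparison over 15893 genes, calls went to 61 of 100 genes altered 2-fold, to 9 of 99 altered 1.5-fold and to 2 unaltered genes.

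The members, gene lists and motifs were chosen with earlier results of these data known. Named genes were the members, 30 fixed acute phase and pathway genes, for each list up to 2 called genes of smallest p and the strongest call against the majority, and the 3 genes most like each of 5 members. Hpx, Pon1, Tlr2, Ager, Ly96, Lrp2, Mmp9 and members of the marker lists were named after their values were seen, to complete short counts.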

Additional observations from a re-analysis of the deposited data

Results flagged for a closer look

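Orm3 in CCl4 replicate 2 stood apart from the other CCl4 livers, at 9.45 CPM beside 6.06 to 7.04 CPM. The gap to its neighbour was 0.662 of the range of log2 CPM, above Dixon's 95% critical value for 6 samples. It was the 1 such case among 20 groups looked at (10 genes in each of 2 groups), and chance alone gives about 1 in 20.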

How the results depend on the processing

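Lcn2, Lbp and Saa4 kept their direction and call under all 22 alternatives run for each. The count of members called was 3 except for 6 with limma-voom, 6 without oil replicate 5, and 5 with both libraries richest in short transcripts left out (leaving out single libraries gave 3 to 6). Calls over all tested genes were also more in these settings, at 8729, 7514 and 6879 in that order, against 6256. With limma-voom the log2 fold changes were 1.36 for Saa1, 1.67 for Saa2, 1.55 for Saa3, 0.65 for Orm1, 0.025 for Orm3 and 1.30 for Apcs, of which Saa1, Saa2 and Orm3 reversed and Saa3, Orm1 and Apcs passed. With both short-rich libraries left out Saa1 reversed to 0.065, and Saa3 (1.38) and Apcs (1.07) passed. With the length slope as a covariate Orm1 reversed to -0.033 and Orm2 to -0.18, and with length and GC trends removed Orm2 reversed to -0.15. These 2 settings also lowered Saa3 (0.13 and 0.55, against 1.11) and Apcs (0.18 and 0.39, against 0.73). Orm3 became 0.39 when the 3 Orm genes were counted as 1, since Orm1 dominates that sum. The cause of the other shifts was not tested.

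Leaving out each library in turn gave log2 fold changes of -1.21 to 0.12 for Saa1, -1.61 to -0.04 for Saa2, 0.71 to 1.78 for Saa3, -0.94 to -0.59 for Saa4, 0.23 to 0.66 for Orm1, -0.15 to 0.72 for Orm2, -0.75 to -0.23 for Orm3, 2.27 to 3.08 for Lcn2, -1.05 to -0.78 for Lbp and 0.49 to 1.31 for Apcs. The upper end of the range of all of these but Lbp was the fit without oil replicate 5. Genes passing in all numbered 6256, with 5190 to 8729 under the alternatives and 5238 to 7514 without single libraries. Pairs of members with an unadjusted p under 0.05 in CCl4 fell to 5 after removal of length and GC trends, against 10 of 45, while the oil count was 36 of 45 under each of the 3 scalings and this removal. Adjusted, the oil count was 32, and 34 with DESeq2 size factors, 0 with upper-quartile scaling and 10 with the trends removed. Upper-quartile scaling moved the median of all genes to 0.13 on the log2 scale. No paired analysis was possible because the labels carry no replicate numbers and nothing that ties a CCl4 mouse to an oil mouse. The 6 livers a group limit what could be seen: the intervals of Saa1 and Saa2 are wider than 3 log2 units.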

Other observations

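The count of Lcn2 per count of Orm2, which needs no scaling between libraries, was 4.08, 4.36, 4.54, 4.97, 5.03 and 4.96 in CCl4 replicates 1 to 6, against 0.682, 0.737, 0.274, 0.604, 0.804 and 1.39 in oil replicates 1 to 6. The ratio spanned 1.23-fold in CCl4, where Lcn2 itself spanned 2.18-fold and Orm2 2.22-fold, and 5.07-fold in oil. All CCl4 livers lay above all oil livers. Lcn2 per Saa1 was also higher in every CCl4 liver, at 0.373 to 2.02 beside 0.0590 to 0.264 in oil, but spanned 5.40-fold in CCl4.

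The count of Lbp per count of Itih4 was 0.0426 to 0.0509 in CCl4 and 0.0660 to 0.0818 in oil, without overlap, and spanned 1.2-fold in CCl4 and 1.24-fold in oil. Over the same livers Lbp itself spanned 1.53-fold in CCl4 and 2.58-fold in oil. These ratios were chosen after the values were seen and were not tested.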
